A study of Mus musculus with 12 samples.

Results

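The genes described here are 9 regulators of striatal projection neurons, the principal neurons of the striatum: the retinoid receptors Rarb and Rxrg, the forkhead factors Foxp1 and Foxp2, the homeodomain factors Meis2 and Six3, the zinc finger factors Bcl11b and Zfp503, and the helix-loop-helix factor Ebf1. They were chosen by name, and all 9 were found among the 23951 rows of each deposited table. RNA was sequenced from cortex of C57BL/6 mice that were wild type (WT), heterozygous (Het, labelled miR-137/+) or knockout (KO, labelled miR-137 KO) for the brain-enriched microRNA miR-137, with 4 libraries per genotype. The sources used here give neither the design of the allele nor the age or sex of the mice. The authors pooled the libraries of a genotype into 1 RPKM value (a read level scaled to transcript length and sequencing depth) in each of 3 pairwise tables, so no value carries an SD and the depth is unknown. The labels do not tie the 4 libraries to 4 mice; the authors' p-values therefore measure only a spread between libraries that may be technical.

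Retinoic acid, made from vitamin A, acts through nuclear receptors of the RAR group, which bind DNA as pairs with receptors of the RXR group at direct repeats of a short core site. The striatum is among the forebrain regions with the most retinoid signalling, and RARβ and RXRγ are the receptor subtypes it is known for. Striatal neurons arise from the lateral ganglionic eminence of the ventral forebrain, where Meis2, Six3, Zfp503, Ebf1, Bcl11b, Foxp1 and Foxp2 act in their formation. Some of these genes also mark cortical neurons: Bcl11b the subcortically projecting cells of deep layers, Foxp1 several layers, and Foxp2 deep layers.

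The promoter windows of the 2 retinoid receptors are shown because these genes had the highest folds over WT in KO and because Rarb is a known target of retinoic acid itself. Each window is from RefSeq on GRCm38.p6, runs 5′ to 3′ on the gene's strand from 250 bases before to 50 after a transcript start, and has in capitals every match to the motifs searched.

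Rarb, chr14:16575427-16575726, minus strand: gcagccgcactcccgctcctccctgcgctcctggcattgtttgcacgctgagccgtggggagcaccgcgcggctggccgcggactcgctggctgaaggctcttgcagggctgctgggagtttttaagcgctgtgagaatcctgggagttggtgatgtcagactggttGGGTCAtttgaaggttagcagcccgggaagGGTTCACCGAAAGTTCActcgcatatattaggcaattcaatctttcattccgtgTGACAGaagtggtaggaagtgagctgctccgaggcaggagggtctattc

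Rxrg, first start, chr1:167598112-167598411, plus strand: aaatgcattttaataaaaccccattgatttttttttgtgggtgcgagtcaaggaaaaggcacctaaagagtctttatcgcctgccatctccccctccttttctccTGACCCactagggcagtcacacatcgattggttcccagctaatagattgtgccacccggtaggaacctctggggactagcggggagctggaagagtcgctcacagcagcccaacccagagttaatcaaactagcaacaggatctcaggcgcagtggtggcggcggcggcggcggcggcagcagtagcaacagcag

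Rxrg, second start, chr1:167618015-167618314, plus strand: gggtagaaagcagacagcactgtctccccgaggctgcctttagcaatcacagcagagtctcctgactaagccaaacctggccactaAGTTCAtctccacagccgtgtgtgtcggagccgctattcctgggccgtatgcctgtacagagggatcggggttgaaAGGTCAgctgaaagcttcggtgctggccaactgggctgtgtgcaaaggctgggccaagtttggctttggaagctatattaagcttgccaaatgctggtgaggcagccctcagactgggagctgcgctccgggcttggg

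The core site of nuclear receptors was searched on both strands with the letters AGGTCA, with the letters AGTTCA, with the letters GGGTCA and with the letters GGTTCA, and 43.7% of all 32851 promoter windows hold at least 1. Both genes have core sites in these windows. A direct repeat, meaning 2 core sites in the same orientation 1 to 5 bases apart, is in 0.7% of windows. Rarb has a single direct repeat, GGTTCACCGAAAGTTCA, whose first base lies 53 bases before the start and whose core sites are separated by 5 bases. Neither Rxrg window holds a direct repeat by these letters. The other motifs searched were a forkhead core (TAAACA, in 13.4% of windows), a MEIS core (TGACAG, in 19.2%) and an EBF palindrome (TCCCNNGGGA, in 0.904%), each on both strands. Of the 9 genes, 8 matched the RefSeq table, with 12 windows in all. The forkhead core is in each of the 3 windows of Foxp1, and the MEIS core is in the windows of Six3 and Rarb and in 1 window of Foxp1. These matches describe letters, not bound sites.

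**Figure D1:**
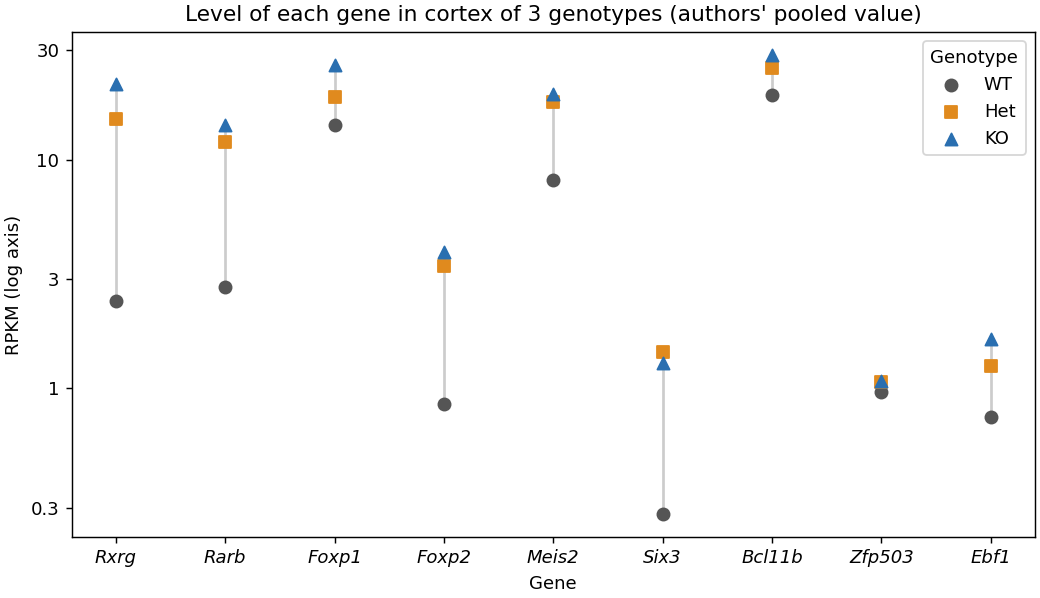
Level of the 9 genes in each genotype, as the authors' pooled RPKM on a log axis (circles WT, squares Het, triangles KO). The circle is lowest for every gene, and for Rxrg the points run from 2.41 in WT to 21.3 in KO, while for Zfp503 they run only from 0.965 to 1.08.

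Rxrg encodes RXRγ, a partner of RAR and other nuclear receptors. In the authors' deposited table of Het against WT it stood at 2.41 RPKM in WT and 15.1 in Het, and the table of KO against WT gave 21.3 in KO. Rxrg was thus above WT in both genotypes, by 6.29-fold in Het (adjusted p 0.00135) and 8.84-fold in KO (adjusted p 0.000987) in the authors' deposited tables. Among the 13655 genes of at least 1 RPKM in KO or WT, its log2 difference of 2.71 ranked 17 from the largest. In Het its log2 difference of 2.24 ranked lower, at 87 among 13738 genes of at least 1 RPKM in Het or WT. Log2 differences throughout are between values of log2(RPKM + 1), a scale on which low genes change less than their fold.

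Rarb, which encodes the retinoic acid receptor RARβ, had 2.76 RPKM in WT and 11.9 in Het in the authors' deposited table, and 14.1 in KO. It rose 4.31-fold in Het (adjusted p 0.00135) and 5.11-fold in KO (adjusted p 0.000987) in the authors' deposited tables. Its log2 difference in KO, 2.01, ranked 27 from the largest, and that in Het, 1.78, ranked 101. Rarb shares 1793 exon bases with Top2b on the other strand in the GENCODE M21 annotation, and the library kit does not mark strand, so reads there cannot be assigned to either gene. Top2b, a DNA topoisomerase, had 44.0 RPKM in WT, 49.4 in Het and 48.6 in KO in the authors' deposited tables (adjusted p 0.469 and 0.491 against WT).

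Within each receptor family the make-up shifted toward the striatal subtype. Rarb made up 28.0% of the summed RPKM of Rara, Rarb and Rarg in WT, 64.4% in Het and 64.8% in KO. Rxrg made up 6.90% of the summed RPKM of the RXR genes in WT, 32.0% in Het and 37.9% in KO. These shares are descriptions without a test. Of the 4 other receptors, 0 rose in either genotype against WT, also at an unadjusted p below 0.05. With 3.95% of all genes tested higher in Het and 6.72% in KO, a count of 0 in 4 does not set them apart. Rxra fell in Het, which the authors' deposited table gives as 3.78 against 5.63 RPKM with an adjusted p of 0.00244. The authors' deposited table for KO has Rxra at 4.37 RPKM (adjusted p 0.0762). Rara, the receptor with the highest RAR level in WT at 5.45 RPKM, stood at 4.43 in Het and 5.63 in KO, and Rxrb, the most abundant RXR gene, at 26.9, 28.4 and 30.4 RPKM in WT, Het and KO in the authors' deposited tables. Neither passed the authors' test, with adjusted p of 0.324 and 0.906 for Rara and 0.825 and 0.382 for Rxrb.

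**Figure D2:**
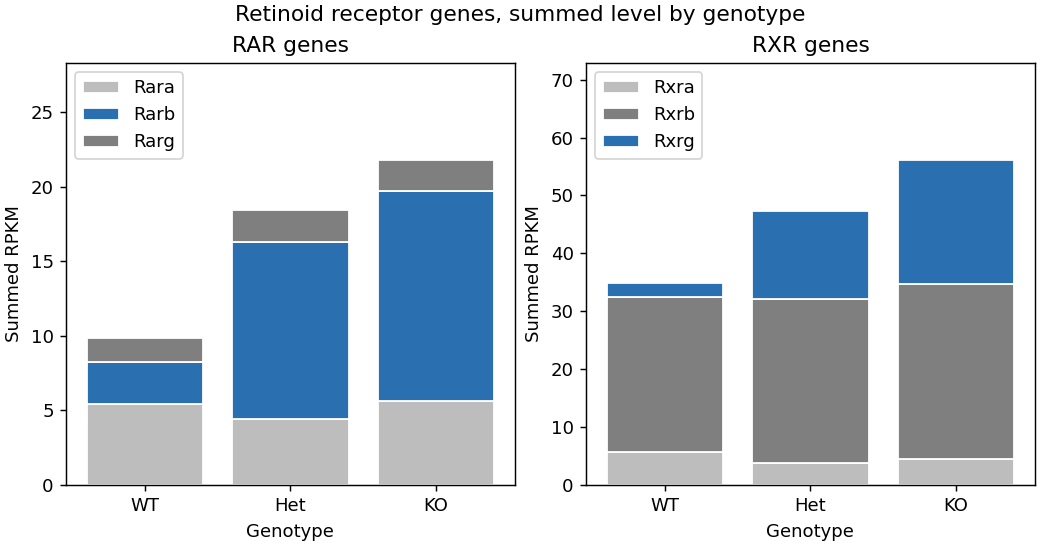
Summed RPKM of the RAR genes (left) and RXR genes (right) by genotype, with Rarb and Rxrg in blue and the other subtypes in grey. The blue part of the RAR bar grows from 2.76 RPKM in WT to 14.1 in KO and that of the RXR bar from 2.41 to 21.3.

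Genes that supply, carry and break down retinoids were counted from a list of 18, of which 13 reached 1 RPKM in either genotype. In Het 2 rose and 1 fell, and in KO 4 rose and 1 fell. Over all genes tested, 3.95% rose and 5.06% fell in Het, and 6.72% rose and 7.68% fell in KO. Crabp1, a cytoplasmic carrier of retinoic acid, rose from 4.35 to 14.1 RPKM in Het and 17.7 in KO in the authors' deposited tables (adjusted p 0.00135 and 0.000987). Cyp26b1, the brain enzyme that degrades retinoic acid, rose from 5.01 RPKM to 13.1 in Het and 10.4 in KO, with the same adjusted p values in the authors' deposited tables. Fabp5, a fatty acid and retinoic acid carrier, rose in KO from 343 to 462 RPKM (adjusted p 0.0056), per the authors' deposited table. The retinaldehyde dehydrogenases, which make retinoic acid, gave the falls in the authors' deposited tables. Aldh1a2 fell in Het from 2.2 to 1.19 RPKM (adjusted p 0.0388) and Aldh1a1 in KO from 23.8 to 16.8 (adjusted p 0.00506). The median log2 difference of the 13 was 0.11 in Het and 0.25 in KO, where over all genes tested it was 0.01 in both comparisons. Of 12 coregulators of retinoid receptors, which recruit or remove histone marks, 0 rose against WT in either genotype, also at an unadjusted p below 0.05. Beside the 3.95% and 6.72% of all genes tested that rose, a count of 0 in 12 does not set them apart. The corepressor Nrip1 fell in Het, where the authors' deposited table has 4.61 RPKM against 6.24 (adjusted p 0.0339).

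Foxp1, a forkhead repressor present in striatum and in several cortical layers, was among the most abundant of the 9 genes, with 14.2 RPKM in WT, 18.8 in Het and 26.0 in KO in the authors' deposited tables. It rose 1.32-fold in Het (adjusted p 0.0176) and 1.82-fold in KO (adjusted p 0.000987). Foxp2, its relative in striatum, deep cortical layers and thalamus, had 0.853 RPKM in WT, 3.44 in Het and 3.94 in KO in the authors' deposited tables. The folds of Foxp2 were 4.03 (adjusted p 0.00135) and 4.62 (adjusted p 0.000987). Foxp4, the third family member measured above 1 RPKM, stood at 8.50, 7.89 and 9.27 RPKM in WT, Het and KO and passed neither test against WT (adjusted p 0.785 and 0.629 in the authors' deposited tables).

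Meis2, a homeodomain factor that works with PBX proteins, had 8.15 RPKM in WT, 17.8 in Het and 19.4 in KO in the authors' deposited tables. It rose 2.18-fold (adjusted p 0.00135) and 2.38-fold (adjusted p 0.000987). Among its partners and relatives, Pbx3 also rose, from 2.32 RPKM to 6.24 in Het and 6.03 in KO, with the same adjusted p values in the authors' deposited tables. By the authors' deposited tables, Meis3 stood at 15.7 RPKM in WT, 15.7 in Het and 16.8 in KO (adjusted p 0.994 and 0.739). Meis1, below 1 RPKM in each genotype, rose in KO, at 0.81 RPKM against 0.399 in WT (adjusted p 0.0249 in the authors' deposited table). In Het, Meis1 stood at 0.771 RPKM (adjusted p 0.101). Of the summed RPKM of the 3 Meis genes, Meis2 made up 33.7% in WT, 51.9% in Het and 52.5% in KO.

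Six3, a homeodomain factor of the anterior forebrain that is needed for indirect-pathway striatal neurons, was the lowest of the 9 genes in WT, at 0.283 RPKM in the authors' deposited table. It stood at 1.44 in Het, a 5.09-fold rise (adjusted p 0.00135), and at 1.29 in KO, a 4.57-fold rise (adjusted p 0.000987). An antisense transcript, Six3os1, shares 106 exon bases with Six3 in GENCODE M21. Six3os1 had 0.53 RPKM in WT, 0.949 in Het (adjusted p 0.289) and 0.52 in KO, where the authors' deposited table gives no test.

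Ebf1, which acts in the formation of direct-pathway striatal neurons, had 0.746 RPKM in WT, 1.25 in Het and 1.64 in KO in the authors' deposited tables. It rose 1.68-fold in Het, with an adjusted p of 0.0458 close to the threshold, and 2.2-fold in KO (adjusted p 0.000987). Ebf4, the most abundant family member, passed neither test, at 5.40 RPKM in WT, 4.16 in Het and 5.79 in KO in the authors' deposited tables (adjusted p 0.207 and 0.765).

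Bcl11b, also called Ctip2, was the most abundant of the 9 genes in every genotype, with 19.2 RPKM in WT, 25.2 in Het and 28.6 in KO in the authors' deposited tables. It rose 1.31-fold in Het (adjusted p 0.0128) and 1.49-fold in KO (adjusted p 0.000987). Its relative Bcl11a passed neither test, at 40.7, 43.5 and 49.9 RPKM in WT, Het and KO (adjusted p 0.817 and 0.182 in the authors' deposited tables). Zfp503, also called Nolz1, was the exception among the 9: it had 0.965 RPKM in WT, 1.07 in Het and 1.08 in KO in the authors' deposited tables, folds of 1.1 (adjusted p 0.869) and 1.12 (adjusted p 0.717). The related Zfp703 had 4.24, 4.49 and 4.55 RPKM and passed neither test (adjusted p 0.896 and 0.779).

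**Figure D3:**
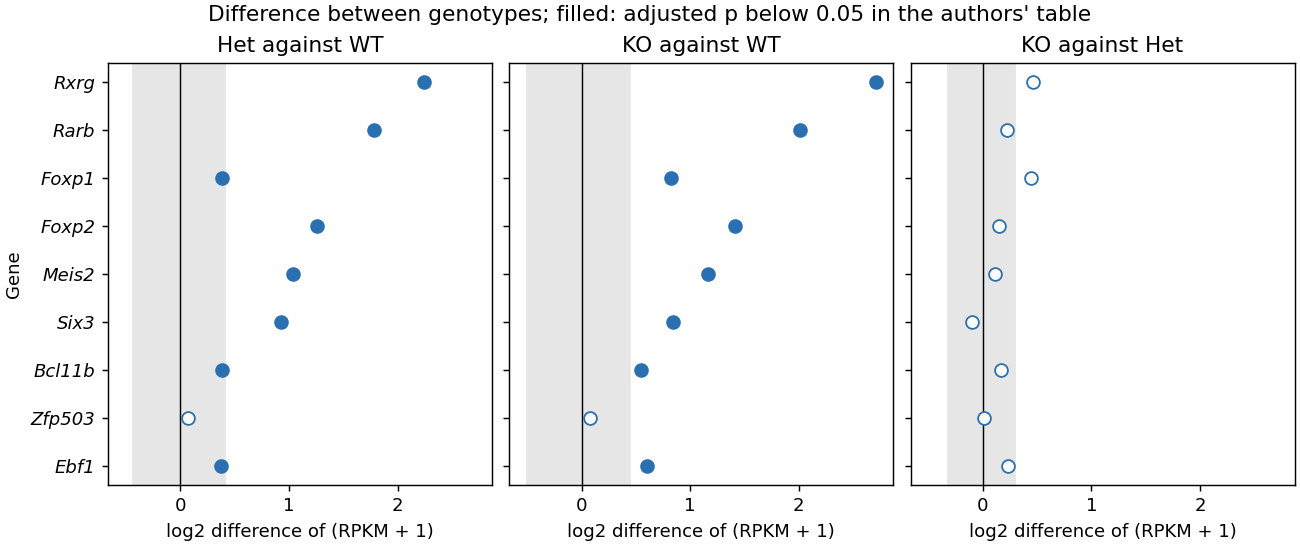
Log2 difference of (RPKM + 1) for each gene in the 3 comparisons, filled where the authors' adjusted p is below 0.05, with the range from the 5th to the 95th percentile of genes of at least 1 RPKM in grey. Against WT, 8 of 9 points are filled in each panel, and in KO against Het none is. The filled points of Foxp1, Bcl11b and Ebf1 in Het against WT lie within the grey range.

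In all, 8 of the 9 genes rose in Het and 0 fell, where 3.95% of 14159 genes tested rose and 5.06% fell. Among these rises in Het, the log2 differences of Foxp1, Bcl11b and Ebf1 were modest. They exceeded those of 94.1%, 94% and 93.6% of genes of at least 1 RPKM. In KO 8 rose and 0 fell, where 6.72% of 14059 genes tested rose and 7.68% fell. The median log2 difference of the 9 was 0.93 in Het and 0.84 in KO; without the added 1, the medians of the log2 ratio stood in the other order, at 1.13 in Het and 1.25 in KO (median folds 2.18 and 2.38). Since both comparisons use the WT libraries, the second count adds no separate evidence for the first. The folds differed widely between genes, from 1.1 to 6.29 in Het and from 1.12 to 8.84 in KO. The genes most abundant in WT, Bcl11b, Foxp1 and Meis2, had KO folds of 1.49, 1.82 and 2.38. Rarb, Rxrg, Foxp2 and Six3, all below 3 RPKM in WT, had folds of 4.57 or more. Ebf1 and Zfp503, both below 1 RPKM in WT, had KO folds of only 2.2 and 1.12, so a low WT level did not always go with a high fold. On the linear scale the increases over WT in KO were 18.9 RPKM for Rxrg, 11.7 for Foxp1, 11.4 for Rarb, 11.3 for Meis2, 9.45 for Bcl11b, 3.08 for Foxp2, 1.01 for Six3, 0.892 for Ebf1 and 0.118 for Zfp503. The order of levels also moved: Rxrg went from rank 5 in WT to rank 3 in KO, above Meis2 and Rarb.

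Direct comparison of KO with Het found no gene of the 9 called in either direction in the authors' deposited table, where 0.917% of 14062 genes tested rose and 0.953% fell. At an unadjusted p below 0.05, 2 of the 9 differed, both higher in KO: Foxp1 and Rxrg. Foxp1, at 26.1 RPKM in KO and 18.9 in Het, had an adjusted p of 0.05003, just above the threshold. The authors' deposited table has Rxrg at 21.3 RPKM against 15.2 (adjusted p 0.222). The others had folds of KO over Het between 0.892 for Six3 and 1.31 for Ebf1.

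**Figure D4:**
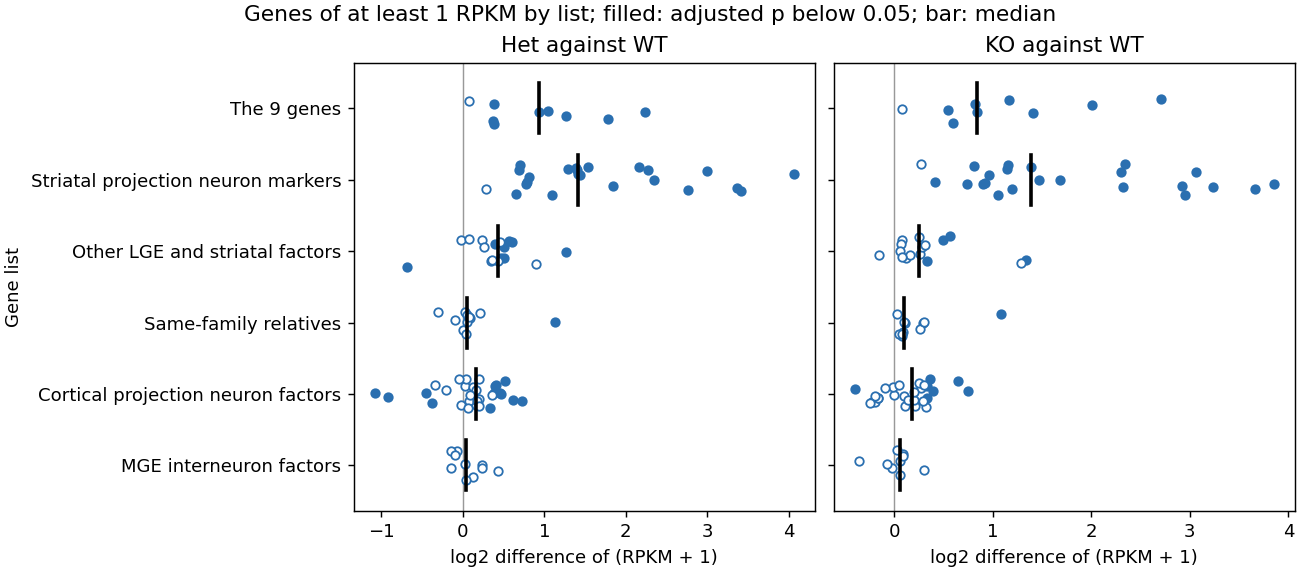
Log2 difference of (RPKM + 1) against WT for genes of at least 1 RPKM in 6 lists, filled where the authors' adjusted p is below 0.05, with a bar at the median; LGE and MGE are the lateral and medial ganglionic eminences. The medians in Het are 0.93 for the 9 genes, 1.41 for striatal projection neuron markers and 0.04 for interneuron factors.

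Other transcription factors of the lateral ganglionic eminence and striatum were called in part. In Het 7 of 17 at or above 1 RPKM rose and 1 fell (median log2 difference 0.43), and in KO 4 of 16 rose (median 0.25). Among all genes tested, 3.95% rose and 5.06% fell in Het, and 6.72% rose in KO. Isl1, a LIM-homeodomain factor of direct-pathway and cholinergic striatal neurons, rose from 0.0932 RPKM to 1.63 in Het (17.5-fold, adjusted p 0.00343) and 1.76 in KO (18.8-fold, adjusted p 0.00179) in the authors' deposited tables. These folds are above those of the 9 genes but divide by a WT value far below 1 RPKM. The log2 differences of Isl1, 1.27 in Het and 1.34 in KO, were below those of Rxrg and Rarb. Mn1 rose from 3.05 RPKM to 4.6 and 4.67 with the same adjusted p values. Sox11, a factor of immature neurons, rose from 8.75 RPKM to 12.9 in Het and 13.5 in KO (adjusted p 0.00135 and 0.000987 in the authors' deposited tables). By the authors' deposited table, the progenitor factors Dlx2 and Sp8 rose in Het, to 3.76 and 1.06 RPKM from 2.13 and 0.447 (adjusted p 0.0165 and 0.00434). In KO Dlx2 stood at 2.40 RPKM (adjusted p 0.684), and Sp8 at 0.314 with no test. Sox8, a glial and neuronal factor, rose in Het from 14.5 to 22 RPKM, and Nr2f2 fell from 6.73 to 3.83, each with an adjusted p of 0.00135 in the authors' deposited table.

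Transcription factors of cortical projection neurons were all at or above 1 RPKM and changed in both directions, with 9 of 30 higher and 4 lower in Het (median 0.16) and 6 higher and 1 lower in KO (median 0.19). The shares of all genes tested were 3.95% higher and 5.06% lower in Het, and 6.72% higher and 7.68% lower in KO. By the authors' deposited tables, the deep-layer factors went both ways in Het: Tbr1 of layer 6 rose from 11.3 to 16.6 RPKM (adjusted p 0.00135), while Etv1 of layer 5 fell from 20.2 to 10.2 (adjusted p 0.00135) and Fezf2 fell from 14.6 to 10.9 (adjusted p 0.0405). In KO, the authors' deposited table has Tbr1 at 14.1 RPKM (adjusted p 0.0842), Etv1 at 17.9 (adjusted p 0.423) and Fezf2 at 15.7 (adjusted p 0.698). Of interneuron factors of the medial ganglionic eminence, 0 of 10 were called in Het and 0 of 9 in KO, in the authors' deposited tables. At an unadjusted p below 0.05, 2 differed in each. Beside the shares of all genes, counts of 0 in so short a list do not set these factors apart. Lhx6, the defining factor of that lineage, had 8.92 RPKM in WT, 8.45 in Het and 8.81 in KO (adjusted p 0.868 and 0.961).

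Markers of striatal projection neurons moved with the 9 genes: 22 of 23 at or above 1 RPKM rose in Het and 22 of 23 in KO, where 3.95% and 6.72% of all genes tested rose. The summed level of all 24 went from 370 RPKM in WT to 1049 in Het and 1091 in KO. None was listed at 0 in any genotype, and the dopamine receptor gene Drd1a stood at 0.755 RPKM in WT, 7.96 in Het and 7.87 in KO in the authors' deposited tables. Cortical excitatory neuron markers, which define the labelled tissue, summed to 2242 RPKM in WT, 2016 in Het and 1803 in KO, again with none at 0. The vesicular glutamate transporter Slc17a7 had 574 RPKM in WT, 484 in Het (adjusted p 0.414) and 393 in KO (adjusted p 0.000987). The markers of the choroid plexus, a tissue of the ventricles, moved the other way. Of these, 9 of 10 were lower against WT in each genotype, where 5.06% of all genes tested fell in Het and 7.68% in KO. Their summed levels were 2218 RPKM in WT, 341 in Het and 116 in KO. The defining gene Ttr had 2027, 281 and 83.6 RPKM. Of the cholinergic neuron markers, the defining gene Chat had 0.0282 RPKM in WT, 0.847 in Het (adjusted p 0.62) and 0.337 in KO, where there was no test. The part of a different share of striatal tissue or cells in the changes of the 9 genes was not tested. In bulk RNA, more cells of a type and more RNA per cell cannot be told apart.

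Among genes of at least 1 RPKM, the 1 whose pair of log2 differences from WT lay nearest was found for each of the 8 genes that rose, over 3 genotypes that share the WT value. For Rxrg it was Rgs9, a striatal regulator of G-protein signalling, at a distance of 0.247 on the log2 scale, with 5.62, 30.9 and 50.3 RPKM in WT, Het and KO. For Foxp2 it was Isl1 (0.079), although its fold over WT is far above that of Foxp2, and for Meis2 the GABA receptor subunit Gabrd (0.005), with 6.54, 14.5 and 15.9 RPKM. The ion channel gene Asic1, at 13.1, 17.3 and 19.6 RPKM, was nearest to Bcl11b (0.008), and Cyr61, at 7.41, 10.1 and 14.2, to Foxp1 (0.037). These matches are on the scale with 1 added, and folds can differ between matched genes. The gene nearest to Six3 was the glial carrier Fabp7 (0.025), at 226, 423 and 403 RPKM, and the gene nearest to Ebf1 was the ribosomal protein gene Rps16 (0.005), at 370, 479 and 562, both with smaller folds than the gene they were matched to. Serpina9, nearest to Rarb (0.179), stood at 0.0792, 3.02 and 2.95 RPKM, a larger fold than that of Rarb. The authors' deposited table does not call Cyr61 and Serpina9 in Het (adjusted p 0.0692 and 0.0792). The distances are descriptions without a test, and no other pseudocount was tried for them.

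Because the Het and KO labels name miR-137, the 3' untranslated regions of the 9 genes were searched for its sites. MicroRNAs lower messenger RNAs mainly through pairing of their seed, bases 2 to 8. The mature microRNA, from RefSeq at chr3:118433901-118433923 (plus strand, GRCm38.p6), has its seed in capitals.

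miR-137-3p: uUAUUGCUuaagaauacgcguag

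A match to the whole seed, AGCAATA, was in the longest annotated GENCODE M21 3' untranslated region of 0 of the 9 genes, whose lengths ran from 350 bases in Rxrg to 4997 in Bcl11b. Of 12398 genes of at least 1 RPKM with such a region, 10.9% hold a match. With the wider definition that also takes bases 2 to 7 followed by A in the target (GCAATAA), 2 of the 9 genes and 16.1% of those 12398 genes have a site. Both sites, from Foxp1 and Bcl11b, are shown with the match in capitals on the transcribed strand of GRCm38.

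Foxp1, chr6:98925364-98925393, minus strand: gcattcttaaatGCAATAAaagtgctggtg

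Bcl11b, chr12:107915147-107915176, minus strand: ccttttaactgtGCAATAAtttctgtattt

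These 2 genes also have the longest 3' untranslated regions of the 9, at 4752 and 4997 bases. A match is a description of letters, and no match says only that these letters are not in the annotated region.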

How the data were processed

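Per the labels' protocols, unstranded TruSeq RNA v2 libraries from mouse cortex were read from both ends on an Illumina HiSeq. Cuffdiff 2.2.1, TopHat2 2.0.13, CASAVA 1.4 and the build mm9 appear in the submitters' processing notes without role or order; which gene annotation was used is not stated there. Each deposited table holds, per the file headers, 1 RPKM value per genotype and the authors' p-value and q-value (called adjusted p here). Adjusting the deposited p-values by Benjamini-Hochberg, leaving out genes whose p-value is 1 (taken as untested), returns the deposited q-values. No test was run here: calls are the authors' q below 0.05, and folds are RPKM ratios. Libraries were grouped by genotype in their titles.

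The 9 genes and all lists were chosen with earlier results of these data known. The rule for named genes took all genes of a list with at most 8 measured, otherwise up to 5 called genes (smallest q, then largest difference), and defining markers. Named after their values were seen were Foxp4, Meis1, Meis3, Ebf4, Bcl11a, Zfp703, Six3os1, Top2b, Lhx6, Fezf2, Dlx2 and Sp8. Genes of at least 1 RPKM in either genotype counted as measured. Promoters came from RefSeq and 3' regions from GENCODE M21 by gene symbol, on GRCm38, not the build of the tables. The planned protein comparison was not run, and some genes that the rule names are not reported here. Only the adjustment of p-values, the calling threshold, the log2 difference and the nearest-gene distance were tried on made data with known answers. The motif and site searches, exon overlaps, family shares and list counts were not. Python 3.11.15, numpy 2.4.6, pandas 2.3.3 and matplotlib 3.10.9 were used. No column was left without a genotype (0).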

Additional observations from a re-analysis of the deposited data

How the results depend on the processing

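The count of 8 genes higher in Het was 5 at a q threshold of 0.01, 5 with an absolute log2 difference of at least 0.5, and 5 among genes of at least 5 RPKM, of which there are only 5. In KO it was 5 among genes of at least 5 RPKM. Adjusting over the 3 tables together, 1 gene was higher in KO than Het: Foxp1 (adjusted p 0.0172). With the wider miR-137 match, chosen after seeing the data, 2 genes had a site. All 27 log2 differences (9 genes in 3 comparisons) kept their sign with pseudocounts of 0.1 and 0.01, recentred, or with values from the other table. With a pseudocount of 0.01, Six3 in Het moved from 0.93 to 2.31, Foxp2 from 1.26 to 2.00 and Ebf1 from 0.37 to 0.74. No paired analysis was possible because the tables hold 1 pooled value per genotype, so no library could be left out either. The depth behind each value is unknown.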

Other observations

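Of 7 nuclear receptors that pair with RXR at or above 1 RPKM, 1 rose in each genotype against WT, where 3.95% of all genes tested rose in Het and 6.72% in KO. Nr4a1, an activity-regulated orphan receptor, rose in Het, where the authors' deposited table has 24.1 RPKM against 17.7 with an adjusted p of 0.01. Nr4a2, an orphan receptor of dopamine neurons, rose in KO to 18 RPKM from 10.8 (adjusted p 0.000987), and its Het value of 8.17 had an adjusted p of 0.0526, by the authors' deposited tables. It was also higher in KO than in Het, at 18.1 against 8.22 RPKM with an adjusted p of 0.00517 in the authors' deposited table. The thyroid hormone receptors Thra and Thrb, the oxysterol receptors Nr1h2 and Nr1h3, and Ppard passed neither test against WT.

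Of 6 transcription factors of thalamus and midbrain at or above 1 RPKM, 4 fell in Het and 3 in KO, where 5.06% and 7.68% of all genes tested fell. Tcf7l2, a thalamic factor, had 7.63 RPKM in WT, 1.99 in Het and 1.62 in KO, and Otx2 had 3.91, 0.634 and 0.272. Otx2 is also counted among the choroid plexus markers, of which 9 of 10 fell in each genotype; their part in its change was not tested. Rora and Nr2f1 also fell in Het and Lef1 in KO, while Lhx9 passed neither test. The cortical zinc finger gene Tshz2 fell in Het and rose in KO, at 6.03, 2.33 and 10.8 RPKM in WT, Het and KO.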
